A study of Mus musculus with 6 samples.

Results

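The 10 genes described here encode proteins that make or use microRNAs (Drosha, Dgcr8, Xpo5, Dicer1, Tarbp2, Tnrc6a, Tnrc6b and Tnrc6c) and enzymes that cut RNA paired with DNA (Rnaseh1 and Rnaseh2a). They were taken by symbol from the 23284 gene symbols of the count files, whatever their values, and all 10 had enough reads to be among the 13039 genes tested. RNA was sequenced from MIN6, an established line derived from a mouse insulinoma that serves to study pancreatic beta cells. Control KD is 3 libraries from cells given a control ASO, and Paupar KD is 3 libraries from cells given an ASO against Paupar, a long noncoding RNA transcribed beside the transcription factor gene Pax6. ASO is the usual abbreviation of antisense oligonucleotide. Both groups had therefore received an ASO, no untreated cells were sequenced among these 6 libraries, and all came from a single cell line. Neither the chemistry nor the dose or time of the ASOs is described here. In such bulk libraries, fewer cells of a type and less RNA per cell cannot be told apart.

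In animal cells the nuclear enzyme Drosha and its RNA-binding partner Dgcr8 cut a hairpin out of a long primary transcript, Exportin-5 (Xpo5) carries it to the cytoplasm, and Dicer, helped by the TRBP protein that Tarbp2 encodes, trims it to a short duplex. An argonaute protein keeps a strand of that duplex as its guide, and the TNRC6 proteins (also called GW182) link argonaute to the enzymes that shorten and decap the messenger. RNase H1 cuts the RNA of an RNA-DNA hybrid and is the enzyme on which DNA-like ASOs depend, while Rnaseh2a encodes the catalytic subunit of RNase H2, which also removes single ribonucleotides from DNA. In beta cells, loss of Dicer is known to lower insulin content and to disturb identity genes.

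MicroRNAs regulate parts of this machinery too, so the sequences that tie the members to microRNAs are shown first. Mature sequences are from RefSeq with the GRCm38.p6 table, capitals marking the seed, bases 2 to 8. miR-103 and miR-107 share a seed and come from introns of the Pank genes, and miR-26a and miR-26b share another and come from introns of the Ctdsp genes. let-7 is the family whose precursors LIN28 proteins bind and block.
mmu-miR-103-3p: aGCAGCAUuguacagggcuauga
mmu-miR-107-3p: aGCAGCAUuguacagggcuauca
mmu-miR-26a-5p: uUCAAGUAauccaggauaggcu
mmu-miR-26b-5p: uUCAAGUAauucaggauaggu
mmu-let-7a-5p: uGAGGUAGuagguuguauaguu
The Dgcr8 messenger itself carries 2 hairpins. Both were found by sequence inside Dgcr8 exons and on its strand in the NCBIM37 assembly, which is mm9: that of miR-1306 at chr16:18284332-18284410 and that of miR-3618 at chr16:18284643-18284730. Among the other members, the hairpin of miR-5113 was found in a Tnrc6b exon on its strand, at chr15:80770469-80770550. That of miR-693 lay within Xpo5 on its strand, in an intron or at an exon edge. Drosha and Dgcr8 are known to cut such hairpins in the Dgcr8 messenger, a feedback on their own level.
mmu-miR-1306-5p: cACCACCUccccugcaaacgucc
mmu-miR-3618-5p: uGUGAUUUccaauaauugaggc

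miR-103 and miR-107 are textbook regulators of Dicer1. Their 7-base site ATGCTGC, read on the messenger strand only, was present in the longest annotated 3' UTR of 5 of the 10 members, shown here with the site in capitals and NCBIM37 positions.
Dicer1, chr12:105928378-105928401, minus strand: ctgatgcttcatgtaATGCTGCac
Dgcr8, chr16:18254136-18254159, minus strand: cttatatgtacagtcATGCTGCaa
Tarbp2, chr15:102353706-102353729, plus strand: aggcagcccgaggtgATGCTGCtc
Tarbp2, chr15:102354000-102354023, plus strand: tggagtcctgaataaATGCTGCtc
Tnrc6c, chr11:117624457-117624480, plus strand: gacgcacagcttgccATGCTGCca
Tnrc6b held 2 such sites. The annotated 3' UTR of Xpo5, a member without the site, has only 28 bases. Among the 12195 tested genes with an annotated 3' UTR, 13.1% held the site. Longer UTRs hold it more often: 29.7% of UTRs of 0.8 to 1.25 times the length of the Dicer1 UTR (3851 bases) did, 12.3% of those like Dgcr8 (1574 bases), 10.4% of those like Tarbp2 (1221 bases), 23.7% of those like Tnrc6c (2588 bases) and 65.4% of the 26 like Tnrc6b (11610 bases). The let-7 site CTACCTC was in the UTR of 1 member, Tarbp2, against 10.6% of tested genes, and the miR-26 site TACTTGA was in those of Tnrc6a, Tnrc6b and Tnrc6c, against 10.7% of tested genes and 16.2, 50 and 17.7% of UTRs of like length. These matches describe the letters of the annotated UTRs and do not show that a site is used. Mature microRNAs were not measured in these libraries.

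None of the 10 members changed in Paupar KD by edgeR's quasi-likelihood test adjusted over all genes, where 0.0460% of the tested genes were called. At an unadjusted p under 0.05 the count of members was also 0, against 17.7% of tested genes, and DESeq2 called 0 members against 3.97%. Of the 10 log2 fold changes 5 were positive and 5 negative, with a median of 0.0016, beside 0.0057 over all tested genes. Control KD and Paupar KD values stood apart, with no overlap, for 1 member, Drosha, which was higher in Paupar KD (13.7% of tested genes were higher and 13.3% lower without overlap, 27.1% in either direction). For 9 of the 10 members the 95% interval of the fold change lay within 1.5-fold in either direction, and for all 10 it lay within 2-fold. The exception at 1.5-fold was Rnaseh1, and Dicer1 was only just inside (lower end -0.58 on the log2 scale). With control KD replicate 1 left out, the lower ends were -0.70 for Dicer1 and -0.65 for Tnrc6b, past 1.5-fold.

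The libraries held 16973622 to 28693863 counts, and the members had between 368 counts (Tarbp2 in Paupar KD replicate 1) and 5581 counts (Dicer1). The Paupar KD libraries were less alike than the controls, with a biological coefficient of variation of 18.7% against 4.96%, and they differed in a trend on gene length described after the members. No symbol matched Paupar, so its knockdown was not measured. Pax6 was at 588, 620 and 547 CPM (counts scaled to library size) in control KD and at 387, 417 and 389 CPM in Paupar KD. It was lower without overlap, as were 13.3% of all tested genes (log2 fold change -0.56, edgeR adjusted p = 0.0694; DESeq2 adjusted p = 3.13e-06). With the offset for gene length its value was -0.35 (edgeR adjusted p = 0.303). That offset used 19833 bases of annotated Pax6 exon, while its longest annotated transcript has 8401 bases. All 10 beta cell markers were tested, with a summed level of 30590 to 34643 CPM over the controls and 36327 to 54667 CPM over Paupar KD. Ins1 was at 5990 to 6732 CPM over the controls and 5239 to 14318 CPM over Paupar KD, and Ins2 at 14430 to 17207 CPM and 18601 to 28450 CPM (edgeR adjusted p = 0.490 and 0.253). These hormone genes and Iapp make up most of that sum, and 2 of the 10 markers had negative values, Neurod1 (-0.22, lower without overlap) and Slc2a2 (-0.27). Of 21 markers of other cells 6 were tested. Those of alpha, delta and PP cells summed to 70.5 to 80.2 CPM over the controls and 44.8 to 130 CPM over Paupar KD, and the exocrine and duct markers to 45.0 to 55.4 CPM and 53.8 to 124 CPM, with Cpa1, Prss2 and Sox9 at 0. The highest exocrine and duct sum was almost all Spp1 (124 CPM in Paupar KD replicate 3), while Cela1 had a negative value (log2 fold change -0.77, lower without overlap). The 8 mesenchymal, endothelial and immune markers summed to 3.41 to 3.74 CPM over the controls and 1.95 to 3.13 CPM over Paupar KD, with Col3a1 and Ptprc at 0. The part of these shifts in the members' values was not tested.

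Per kilobase of exon, the scale on which genes can be compared, the export receptor was the most abundant and the members spanned a 6.74-fold range in control KD. Xpo5 stood at 28.5 ± 1.62 CPM per kilobase (SD, n = 3) and Dicer1 next at 18.5 ± 0.919. Of the 3709 bases of annotated Xpo5 exon 3612 are coding, and its 3' UTR has only 28 bases. The annotation used for counting is not given, and a longer UTR there would raise this level per kilobase, which was not tested. Drosha, at 13.1 ± 0.132, was above its partner Dgcr8, at 7.11 ± 0.333, and Dicer1 was above its partner Tarbp2, at 4.96 ± 0.306. The nuclear enzyme and the cytoplasmic enzyme thus each stood above the RNA-binding protein that works with it. Tnrc6a (12.5 ± 0.687) and Tnrc6c (11.3 ± 0.712) overlapped each other, and Tnrc6b was the lowest member at 4.23 ± 0.505. The RNase H genes lay in between, Rnaseh2a at 9.91 ± 0.677 and Rnaseh1 at 7.94 ± 0.574. With the argonautes included, 7 of the 13 neighbours in this order were apart in all 3 controls. Drosha and Tnrc6a, Tnrc6a and Tnrc6c, Tnrc6c and Ago2, Ago2 and Rnaseh2a, Rnaseh1 and Dgcr8, and Tarbp2 and Tnrc6b were not. Per kilobase of the longest annotated transcript in place of all exons, Dgcr8 was at 11.5 ± 0.536 and Tarbp2 at 8.26 ± 0.509, still below Drosha at 17.0 ± 0.172 and Dicer1 at 18.9 ± 0.938. Dgcr8 then ranked above Rnaseh1, and Ago1 and Drosha were no longer apart. The deposited symbols of the argonautes are Eif2c1 to Eif2c4, which are Ago1 to Ago4.

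**Figure D1:**
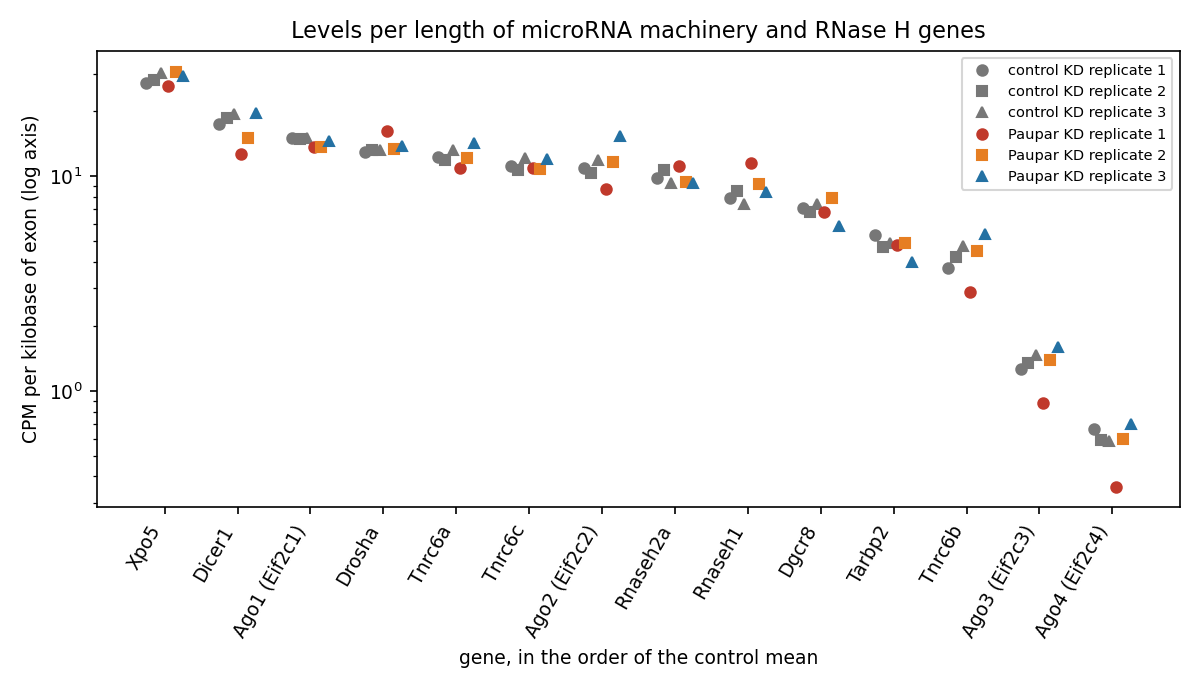
CPM per kilobase of exon on a log axis for the 10 members and the 4 argonautes, 1 point per library, grey for control KD and colours for Paupar KD, ordered by the control mean. Xpo5 and Dicer1 were the highest in the controls, and Ago3 and Ago4 lay below every member.

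Of the nuclear step, Drosha had groups without overlap, as had 27.1% of all tested genes in either direction, and Dgcr8 had overlapping groups. Drosha (chr15:12754570-12865045), the ribonuclease that opens the pathway, was at 76.9, 78.4 and 78.1 CPM in control KD replicates 1 to 3 and at 95.8, 79.3 and 82.3 CPM in Paupar KD replicates 1 to 3. All 3 Paupar KD values lay above the 3 controls, replicate 2 by less than 1 CPM, and replicate 1 stood well above the other two. The log2 fold change was 0.14 ± 0.09 (SE; edgeR adjusted p = 0.451), and 0.049 without Paupar KD replicate 1 (edgeR adjusted p = 0.707). Dgcr8 (chr16:18254041-18289342), its partner, was at 51.7, 49.4 and 54.3 CPM in control KD and at 49.7, 57.6 and 42.9 CPM in Paupar KD. Replicate 2 was the highest of the 6 libraries and replicate 3 the lowest, so the groups overlapped (log2 fold change -0.05 ± 0.12 SE, edgeR adjusted p = 0.853). Of the Dgcr8 exon length, 11.3% is shared with Trmt2a on the opposite strand, and without a stated strand setting reads from that stretch cannot be told apart.

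Xpo5 (chr17:46339804-46379248), which binds the hairpin together with the GTPase Ran, had nearly equal means. It was at 101, 104 and 113 CPM in control KD and at 97.2, 114 and 108 CPM in Paupar KD, with overlapping groups. Its log2 fold change was 0.0076, with a 95% interval from -0.21 to 0.22 (edgeR adjusted p = 0.975).

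Dicer1 (chr12:105925952-105990162) was the member with the lowest fold change, and its Paupar KD libraries disagreed. It was at 176, 187 and 195 CPM in control KD and at 127, 151 and 197 CPM in Paupar KD. Replicates 1 and 2 lay below every control, while replicate 3 lay above every control. Its level in Paupar KD was 0.852 of the control level (log2 fold change -0.23 ± 0.15 SE, 95% interval -0.58 to 0.12, edgeR adjusted p = 0.442). Without Paupar KD replicate 3, Dicer1 passed the threshold as lower (log2 fold change -0.42, edgeR adjusted p = 0.0439), where 10.3% of tested genes were called (611 higher and 745 lower). Without Paupar KD replicate 1 its log2 fold change was -0.10 (edgeR adjusted p = 0.636). Tarbp2 (chr15:102348623-102354107), whose product stabilizes Dicer, was at 24.1, 21.4 and 22.2 CPM in control KD and at 21.7, 22.1 and 18.1 CPM in Paupar KD. Only replicate 3, the library in which Dicer1 was highest, fell outside the control range (log2 fold change -0.13 ± 0.12 SE, edgeR adjusted p = 0.569). Without that library the Tarbp2 value was -0.043.

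The TNRC6 genes, which carry the silencing step, had fold changes near 0 with unequal spread. Tnrc6a (chr7:130267770-130338802) was at 102, 97.6 and 109 CPM in control KD and at 90.3, 99.9 and 118 CPM in Paupar KD. Tnrc6c (chr11:117515603-117624753) was at 143, 138 and 156 CPM in control KD and at 140.0, 139 and 154 CPM in Paupar KD, and its Paupar KD libraries were no more spread than its controls (coefficient of variation 5.88% against 6.29%). Tnrc6b (chr15:80590016-80771516) was at 63.8, 71.6 and 81.0 CPM in control KD and at 49.2, 76.1 and 92.0 CPM in Paupar KD. Its lowest and its highest library were both Paupar KD, and it had the largest coefficient of variation of the members in both groups, 11.9% in control KD and 29.8% in Paupar KD. The 95% interval of its log2 fold change ran from -0.47 to 0.49, against -0.22 to 0.19 for Tnrc6c and -0.26 to 0.26 for Tnrc6a (edgeR adjusted p = 0.949 for Tnrc6c and above that for the others).

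The argonautes, which hold the microRNA, gave 0 calls of 4. Ago1 was at 125, 123 and 125 CPM in control KD and at 114, 113 and 120 CPM in Paupar KD, lower without overlap in every library (log2 fold change -0.10 ± 0.08 SE, edgeR adjusted p = 0.495). With the offset for gene length it was at -0.0048 (edgeR adjusted p = 0.981). Ago2, the argonaute able to cut its target, was at 87.3, 83.1 and 95.8 CPM in control KD and at 70.4, 93.3 and 124 CPM in Paupar KD. Ago3, at 14.6, 23.1 and 26.4 CPM in Paupar KD, and Ago4, at 2.71, 4.55 and 5.32 CPM, had the same order of libraries as Ago2. Their control values were 21.0 to 24.4 CPM and 4.43 to 5.05 CPM. For all 3, Paupar KD replicate 1 was the lowest of the 6 libraries and replicate 3 the highest.

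Rnaseh1 (chr12:29334467-29344456), the enzyme that DNA-like ASOs recruit, had the highest fold change and the smallest p of the members. It was at 19.4, 21.1 and 18.3 CPM in control KD and at 28.3, 22.8 and 20.9 CPM in Paupar KD. Replicates 1 and 2 lay above every control, and replicate 3 lay just under the highest control. The means were 19.6 ± 1.42 CPM for the controls and 24.0 ± 3.83 CPM for Paupar KD (SD, n = 3), a ratio of 1.23. The difference did not pass (log2 fold change 0.29 ± 0.13 SE, 95% interval -0.018 to 0.60, edgeR unadjusted p = 0.0617, edgeR adjusted p = 0.301). Leaving out Paupar KD replicate 1 gave 0.15 (edgeR adjusted p = 0.435), and leaving out replicate 3 gave 0.38 (edgeR adjusted p = 0.0860). Rnaseh2a (chr8:87480509-87493666) was at 34.4, 37.3 and 32.6 CPM in control KD and at 39.0, 33.1 and 32.4 CPM in Paupar KD, with a log2 fold change of 0.0033 (edgeR adjusted p = 0.992). Of its exon length, 5.04% is shared with Prdx2 on the opposite strand. The genes of the other RNase H2 subunits were not called either. Rnaseh2b was at 39.6, 43.8 and 37.0 CPM in control KD and at 35.2, 36.7 and 39.6 CPM in Paupar KD, with overlapping groups (log2 fold change -0.11 ± 0.10 SE, edgeR adjusted p = 0.587). Rnaseh2c was at 39.3, 32.9 and 28.9 CPM in control KD and at 61.8, 41.0 and 39.3 CPM in Paupar KD. The Rnaseh2c groups did not overlap, but only just, with 39.35 CPM in Paupar KD replicate 3 against 39.34 CPM in control KD replicate 1. The change missed the threshold (0.49 ± 0.19 SE on the log2 scale, edgeR adjusted p = 0.253). With the offset for gene length it was 0.36 (edgeR adjusted p = 0.294).

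**Figure D2:**
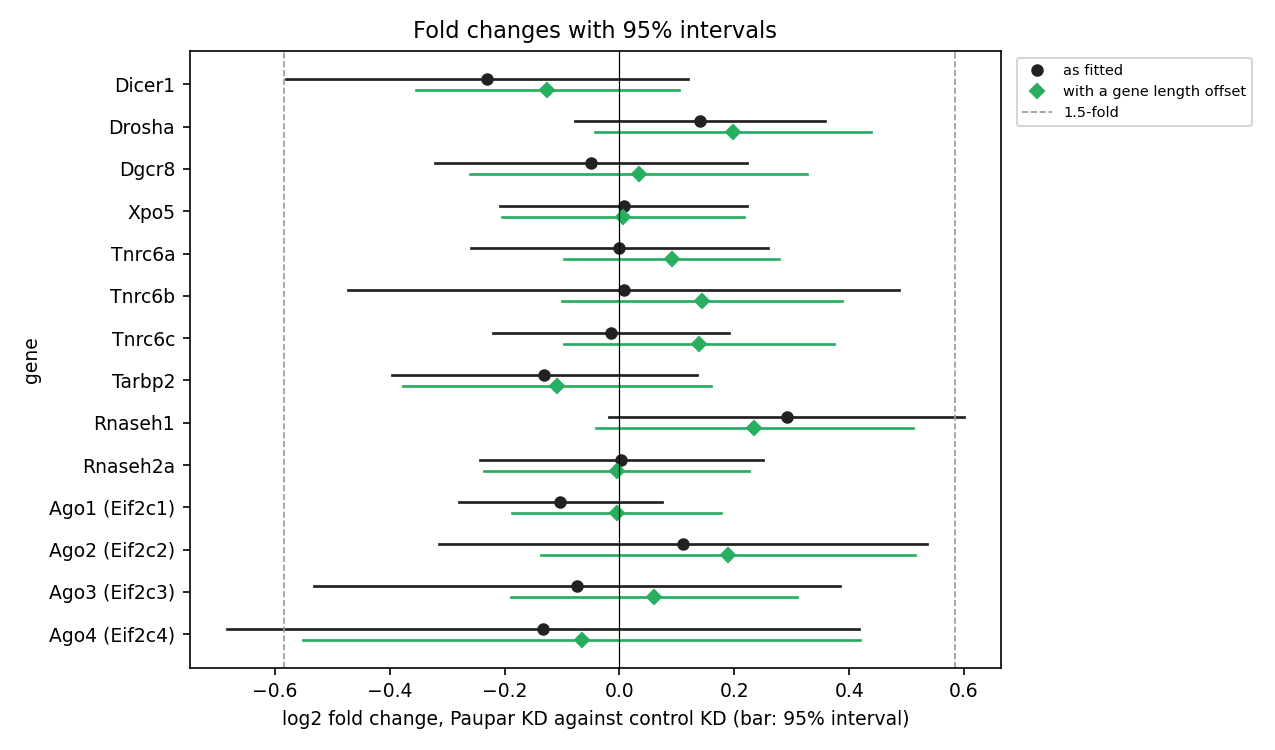
Log2 fold changes of Paupar KD against control KD with 95% intervals for the 10 members and the 4 argonautes, black as fitted and green with an offset for gene length, dashed lines at 1.5-fold. Every interval included 0, and among members only that of Rnaseh1 as fitted reached past 1.5-fold.

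Ratios between members, and the shares given after them, do not depend on how libraries are scaled, but neither was adjusted for the trend on gene length. The log2 ratio of Rnaseh1 to Rnaseh2a per kilobase was -0.31, -0.32 and -0.33 in control KD and 0.043, -0.032 and -0.12 in Paupar KD. All 3 Paupar KD values lay above the controls. The difference was 0.28, with an exact two-sided permutation p of 0.1, the smallest that 3 against 3 libraries can give, and an adjusted p of 1 over the 10 shares and ratios compared. It ranged from 0.24 to 0.33 when any single library was left out. The log2 ratio of Drosha to Dgcr8 was 0.87, 0.96 and 0.82 in control KD and 1.24, 0.76 and 1.24 in Paupar KD (exact permutation p = 0.4). The log2 ratio of Dicer1 to Tarbp2 was 1.73, 1.98 and 1.99 in control KD and 1.40, 1.63 and 2.30 in Paupar KD (exact permutation p = 0.6).

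The make-up of the paralog families was close to constant on average. Tnrc6a supplied 44.5 ± 0.751% of the summed TNRC6 level per kilobase in control KD and 44.6 ± 0.480% in Paupar KD (SD, n = 3; exact permutation p = 0.8). Tnrc6b supplied 15.1 ± 1.15% and 15.01 ± 2.91%, and Tnrc6c 40.4 ± 0.433% and 40.4 ± 3.23%. In Paupar KD the Tnrc6b share was 11.7, 16.3 and 17.1% in replicates 1 to 3 and the Tnrc6c share 44.1, 39.4 and 37.8%, so equal means covered libraries on both sides of the controls. Among the argonautes, Ago1 supplied 53.6 ± 1.52% in control KD and 51.0 ± 6.46% in Paupar KD, and Ago2 39.4 ± 1.51% and 42.4 ± 5.46% (exact permutation p = 0.6 and 0.5). Ago2 overtook Ago1 in Paupar KD replicate 3 alone, with 47.8% against 45.0%.

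**Figure D3:**
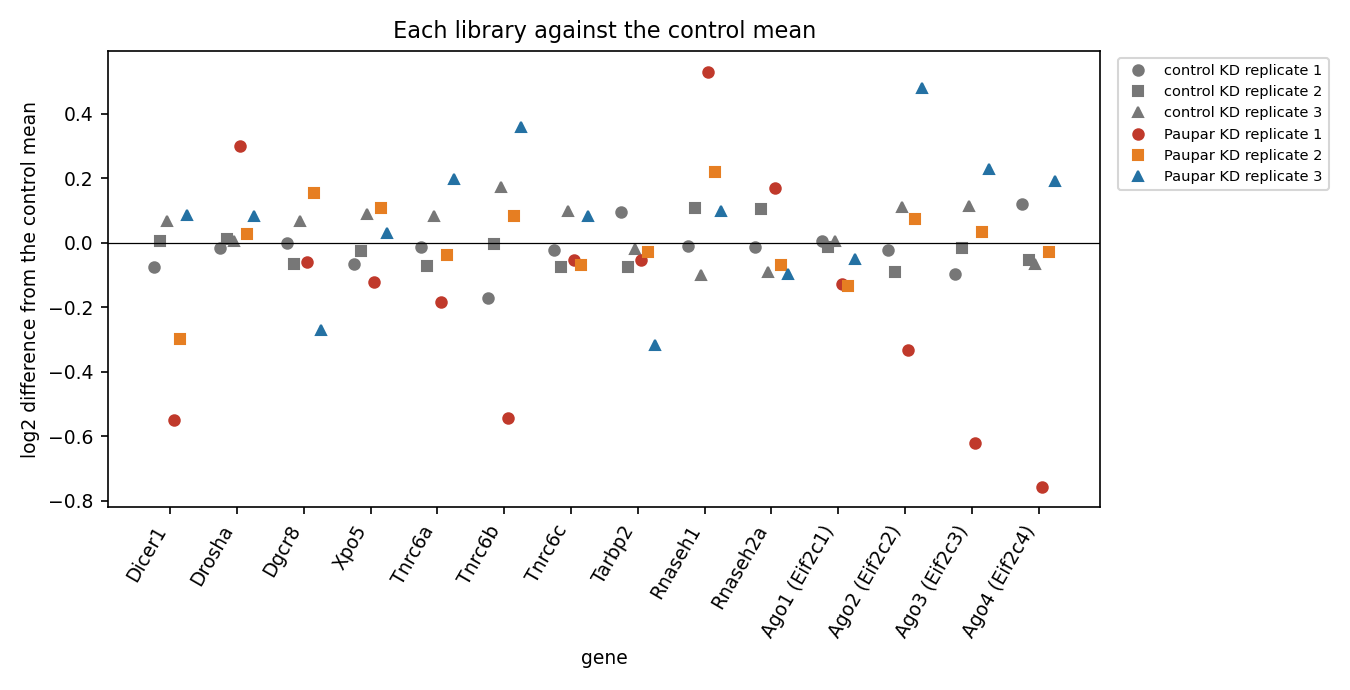
Log2 difference of each library from the control mean for the 10 members and the 4 argonautes, 1 point per library, grey for control KD and colours for Paupar KD. Paupar KD replicate 1 lay at -0.55 for Dicer1, -0.54 for Tnrc6b and 0.53 for Rnaseh1, and replicate 3 at 0.36 for Tnrc6b and 0.48 for Ago2.

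Differences from the controls varied with gene length, most in Paupar KD replicate 1. Over the 12800 tested genes with a known exon length, the difference from the controls had a Spearman correlation with length of -0.33 in Paupar KD replicate 1, -0.22 in replicate 2 and -0.042 in replicate 3. Controls, each set against the other 2, gave -0.26, -0.071 and 0.30 in replicates 1 to 3. The control differences cancel out for each gene, so slopes of opposite sign among them are expected from this comparison alone. The Paupar KD libraries were set against the mean of all controls, so their slopes are not directly comparable with those of the controls. These correlations are across genes of the same library and describe it. Genes were split by length into 10 equal bins. In the shortest bin (median 1075 bases of exon) the median log2 difference was 0.30 in Paupar KD replicate 1, and in the longest bin (median 10036 bases) it was -0.32. Replicate 3 gave 0.060 and 0.022 in the same bins.

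The members sit unevenly on that axis. Dicer1 (10057 bases), Tnrc6a (8247 bases), Tnrc6b (17043 bases) and Tnrc6c (12843 bases) were in the longest bin, together with Ago1 and Ago3, and Rnaseh1 (2469 bases) was in the third shortest. In Paupar KD replicate 1 Dicer1 and Tnrc6b lay further below the controls than the median of their bin, while Tnrc6a, at -0.18, and Tnrc6c, at -0.054, lay above it. Drosha (5934 bases) was at 0.30 there, where the median of its bin was -0.087. With the trend removed from each library, an alternative chosen after seeing the data, the log2 fold change of Dicer1 was -0.13 (edgeR adjusted p = 0.539), that of Rnaseh1 0.23 (edgeR adjusted p = 0.348) and that of Drosha 0.20 (edgeR adjusted p = 0.363). Dgcr8, Tnrc6a and Tnrc6c turned from negative to positive values, at 0.033, 0.091 and 0.14, and 0 members were called. The part of length in these differences was not tested further.

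**Figure D4:**
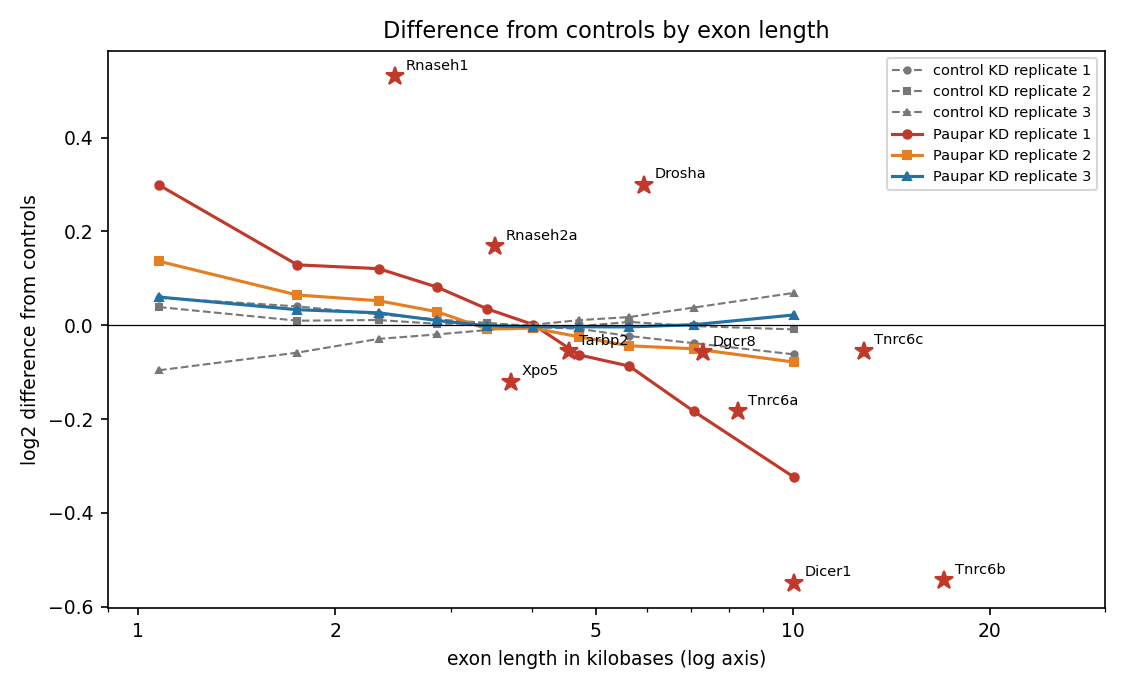
Median log2 difference from the controls in 10 equal groups of tested genes by exon length (log axis, kilobases), 1 line per library, with stars for the 10 members in Paupar KD replicate 1. The Paupar KD replicate 1 line fell from 0.30 to -0.32, with Dicer1 and Tnrc6b below its end and Rnaseh1 above its start.

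The genes that work beside the members were read from 7 lists that include the argonautes, and 0 of 128 tested genes were called by edgeR, with 18 at an unadjusted p under 0.05 and 6 called by DESeq2. Of all tested genes 0.0460%, 17.7% and 3.97% passed, in that order. Without overlap, 13.7% of all tested genes were higher and 13.3% lower. The 6 genes called by DESeq2 were Fmr1, Hsp90ab1, Lin28a, Lin28b, Ctdsp1 and Ctdsp2. List medians of the log2 fold change lay between -0.089 (argonautes) and -0.029 (proteins that bind ASOs or clear cut RNA).

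Of 22 cofactors of microRNA processing 8 had positive and 14 negative values, with 0 calls. Without overlap 4 were higher and 4 lower, beside 13.7% and 13.3% of all tested genes. The LIN28 proteins, which block maturation of let-7 precursors, stood on opposite sides. Lin28b was at 34.6, 38.8 and 37.1 CPM in control KD and at 26.3, 25.5 and 30.4 CPM in Paupar KD (ratio 0.745, log2 fold change -0.42 ± 0.10 SE, edgeR adjusted p = 0.144; DESeq2 adjusted p = 0.0288). Lin28a, much lower in level, was at 4.43, 2.98 and 3.32 CPM and at 6.49, 7.04 and 4.89 CPM (log2 fold change 0.78 ± 0.21 SE, edgeR adjusted p = 0.162; DESeq2 adjusted p = 0.0432). Neither gene's groups overlapped.

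Of 18 tested argonaute partners 8 had positive and 10 negative values, with 0 calls. Groups did not overlap for 2 higher and 6 lower, beside 13.7% and 13.3% of all tested genes. Fmr1, which encodes the RNA-binding protein FMRP, was at 245, 263 and 255 CPM in control KD and at 131, 183 and 181 CPM in Paupar KD, a ratio of 0.648. All 3 Paupar KD libraries lay far below the controls (log2 fold change -0.62 ± 0.13 SE, edgeR adjusted p = 0.126; DESeq2 adjusted p = 0.0031). It passed the edgeR test without Paupar KD replicate 1 (adjusted p = 0.0148) and without replicate 3 (adjusted p = 0.0267). Hsp90ab1, a chaperone gene that helps load argonaute, was at 2712, 2737 and 2585 CPM and at 1911, 2164 and 2315 CPM (edgeR adjusted p = 0.182; DESeq2 adjusted p = 0.0493). Of all tested genes 1.91% were called without replicate 1, against 2 of 129 tested listed genes (1.55%), and 10.3% without replicate 3, against 10 of 129 (7.75%). Ncl, the nucleolin gene of the ASO list, was the other listed gene called without Paupar KD replicate 1 (log2 fold change 0.40, edgeR adjusted p = 0.0367), chosen here after its values were seen.

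Of 26 genes of deadenylation and decapping, the enzymes that TNRC6 proteins recruit, 10 had positive and 16 negative values, with 0 calls. Without overlap 0 were higher and 4 lower, beside 13.7% and 13.3% of all tested genes. Pan2, the catalytic subunit of a deadenylase, was at 35.5, 35.9 and 37.5 CPM in control KD and at 29.4, 30.03 and 18.3 CPM in Paupar KD (log2 fold change -0.49 ± 0.18 SE, edgeR adjusted p = 0.235). Dcp1a, a decapping cofactor, was at 50.2, 51.9 and 52.6 CPM and at 38.1, 40.7 and 50.2 CPM (edgeR adjusted p = 0.285). It counts among the 4 only just, with 50.16 CPM in Paupar KD replicate 3 against 50.19 CPM in control KD replicate 1. The median of this list was -0.19, -0.024 and -0.019 in Paupar KD replicates 1 to 3, so its negative values were largest in replicate 1.

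Of 14 RNase H2 partners and RNA-DNA hybrid factors 6 had positive and 8 negative values, with 0 calls. Groups did not overlap for 1 higher and 2 lower, beside 13.7% and 13.3% of all tested genes. Besides Rnaseh2c, Thoc2, of the complex that packages nascent messenger, was at 130, 138 and 139 CPM and at 71.9, 122 and 106.7 CPM (log2 fold change -0.44 ± 0.18 SE, edgeR adjusted p = 0.262). Of 19 tested genes for proteins that bind ASOs or clear cut RNA 7 had positive and 12 negative values, with 0 calls. Without overlap 1 was higher and 1 lower, beside the same shares of all tested genes. Exosc3, a core exosome subunit, was at 19.6, 17.5 and 16.3 CPM and at 24.8, 22.4 and 23.3 CPM (log2 fold change 0.40 ± 0.11 SE, edgeR adjusted p = 0.162). Stab1, a scavenger receptor that takes up ASOs in endothelial cells, was near its floor at 1.20, 1.41 and 1.26 CPM and 0.472, 0.783 and 0.644 CPM (edgeR adjusted p = 0.163).

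MicroRNA host genes carry hairpins in their transcripts, and a hairpin on the gene's own strand was found by sequence in NCBIM37 for 24 of the 30 listed. Of these 24, 20 were tested. Ppargc1b was not searched. Of the 25 listed genes tested, with or without such a hairpin, 8 had positive and 17 negative values, with 0 calls. Without overlap 3 were higher and 4 lower, beside 13.7% and 13.3% of all tested genes. The 3 hosts of miR-26 were split. Ctdsp1, host of miR-26b, was at 72.1, 64.8 and 66.3 CPM in control KD and at 88.6, 81.5 and 86.1 CPM in Paupar KD (log2 fold change 0.33 ± 0.09 SE, edgeR adjusted p = 0.149; DESeq2 adjusted p = 0.0354). Ctdsp2, host of a miR-26a copy, was at 99.9, 97.6 and 97.5 CPM and at 65.8, 65.1 and 83.1 CPM (log2 fold change -0.46 ± 0.11 SE, edgeR adjusted p = 0.144; DESeq2 adjusted p = 0.0182). Their groups did not overlap, in opposite directions, although the mature products share the seed shown above. Ctdspl, host of the other miR-26a copy, and Pank3, host of a miR-103 copy, were named after their values were seen. Ctdspl was at 81.9, 81.9 and 78.9 CPM and at 72.5, 69.5 and 69.0 CPM. Pank3 was at 356, 384 and 388 CPM and at 228, 307 and 301 CPM (log2 fold change -0.43 ± 0.13 SE, edgeR adjusted p = 0.173), while Pank1 and Pank2, the hosts of miR-107 and of the other miR-103 copy, had log2 fold changes of -0.05 and -0.06. A host's messenger level is not a measure of the microRNA cut from it.

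**Figure D5:**
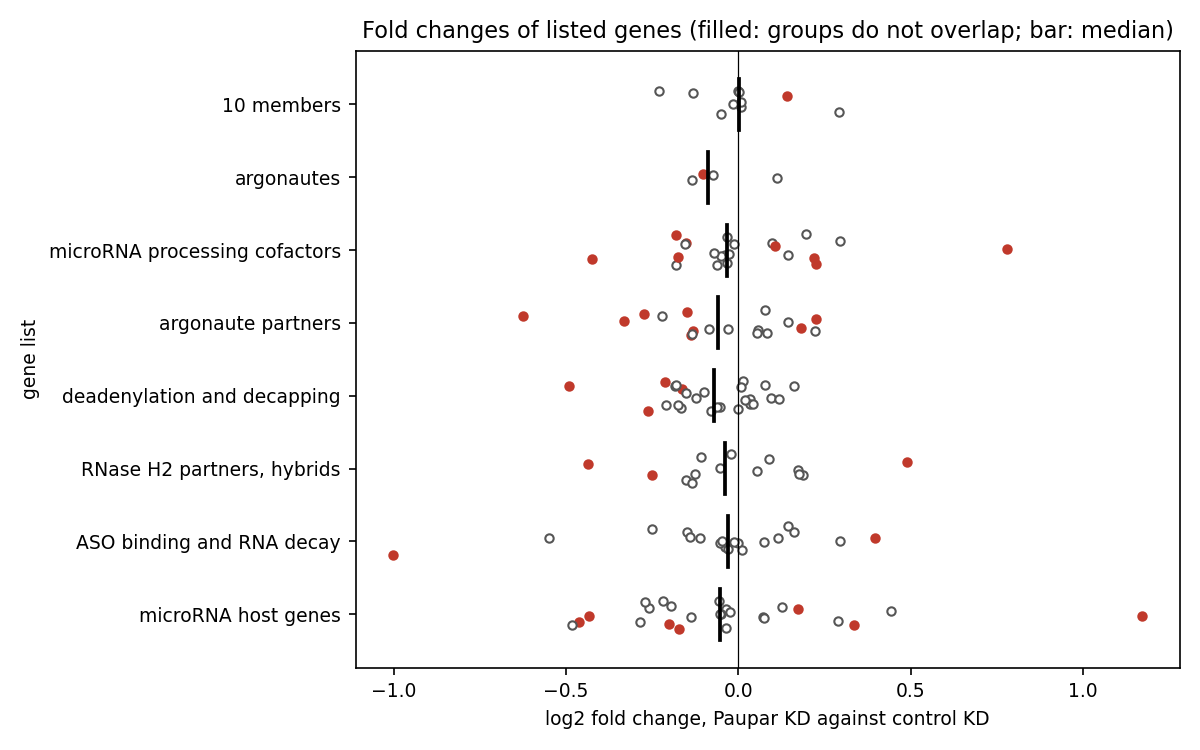
Log2 fold changes of Paupar KD against control KD for the members and the 7 lists, 1 point per tested gene, filled where the 3 values of one group did not overlap the 3 of the other, with the median as a bar. List medians lay close to 0, and 1 of the 10 members, Drosha, is filled.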

How the data were processed

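The authors deposited 1 table per library of raw read counts per gene symbol, not normalized. The tools named, per the submitters' processing notes, are HISAT2, HTSeq, DESeq2 and CASAVA 1.8.2, and the build is mm9. What each did, the strand setting and the gene annotation: not given in the sources used here. The counts were fitted with edgeR 4.0.16 (R 4.3.3): filterByExpr (minimum count 10), TMM factors and the quasi-likelihood test with robust estimation, Paupar KD against control KD, adjusted by Benjamini-Hochberg over 13039 genes at 0.05. The standard error is the log2 fold change divided by the square root of F, and 95% intervals use the test's degrees of freedom. CPM use the TMM factors. Exon lengths are unions of GENCODE M1 exons. DESeq2 1.42.0 and limma 3.58.1 were alternatives. The fit was also run on simulated counts. Those had the same dispersion trend in both groups and no trend on gene length, unlike these libraries, so they do not test this setting. Nothing in the labels ties replicates to separate cultures: a p-value here reflects library-to-library spread, which may be technical. No batch is labelled. Every pair of libraries differed by more than sampling noise (chi-square per gene 3.35 to 8.03 between controls, higher in other pairs, where sampling alone gives about 1).

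The members and lists were chosen with earlier results of these data known. Named by rule were all members and argonautes, Pax6, Ins1 and Ins2. The rule also took the 2 genes with the smallest p in each other pathway list, since no list held a call. Ncl, Ctdspl and Pank3 lie outside the rule and are marked where they appear. Rnaseh2b, Pank1, Pank2 and the other single cell type markers were also named outside the rule. One listed argonaute partner, Zswim8, matched no symbol. The value of 1 marker gene is not reported here.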

Additional observations from a re-analysis of the deposited data

How the results depend on the processing

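Against 5 higher and 1 lower genes over the whole table, DESeq2 called 275 and 233, upper-quartile scaling gave 3 and 0, dropping the low-count filter 36 and 24, requiring a mean CPM of 1 or more 2 and 0, and other thresholds 1 and 0 at an adjusted p under 0.01, 55 and 38 at an adjusted p under 0.1. It was 18 and 8 with the gene length offset. Leaving out 1 library gave 0 to 611 higher and 0 to 745 lower genes, 0 to 1 members and 0 to 10 listed genes (2 of 129 without Paupar KD replicate 1, where 1.91% of all tested genes were called, and 10 of 129 without replicate 3, where 10.3% were). The cause was not tested. The listed genes called were 6 with DESeq2. With the replicate block, 1 higher and 0 lower genes and 0 members were called. Same-numbered libraries did not deviate together across genes (r = 0.072, -0.011 and 0.0061), and the best-matching control had the same number for Paupar KD replicate 1 alone. With 3 libraries per group these correlations cannot exclude that the number pairs them.

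Members with fold changes near 0 turned sign. Tnrc6a was at 0.027 with upper-quartile factors, 0.0011 with library total alone and 0.091 with the length offset. Tnrc6c was at 0.014 with upper-quartile factors and 0.14 with the length offset. Xpo5, Tnrc6b and Rnaseh2a were at -0.0059, -0.0051 and -0.010 when no filter was used and at -0.0010, -0.0012 and -0.0052 when a mean CPM of 1 or more was required. Tnrc6b was at -0.029 with limma-voom and -0.031 with the replicate block, and Rnaseh2a at -0.0022 with limma-voom and -0.0049 with the length offset. Dgcr8 was at 0.033 and Ago3 at 0.061 with the length offset. With 1 library left out the ranges were -0.17 to 0.052 for Dgcr8, -0.051 to 0.062 for Xpo5, -0.11 to 0.078 for Tnrc6a, -0.20 to 0.21 for Tnrc6b, -0.064 to 0.037 for Tnrc6c, -0.090 to 0.052 for Rnaseh2a, -0.12 to 0.28 for Ago2, -0.25 to 0.13 for Ago3 and -0.34 to 0.084 for Ago4. Dicer1, Drosha, Tarbp2 and Rnaseh1 kept their direction in the 15 alternatives that can move a fold change, with Tarbp2 between -0.19 and -0.043 when 1 library was left out.

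For the share differences, in percentage points, the ranges with 1 library left out were -6.0 to 0.42 for Ago1, 0.36 to 5.8 for Ago2, -0.52 to 0.17 for Ago3, -0.35 to -0.0013 for Ago4, -0.21 to 0.51 for Tnrc6a, -1.1 to 1.6 for Tnrc6b and -1.8 to 1.3 for Tnrc6c. For the log2 ratio of Dicer1 to Tarbp2 the range was -0.38 to 0.067. With 1 control left out, 7 to 11 neighbours in the order of levels were apart. Shares with coding lengths from a protein table were not run, as no such table was used here.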
